A study of Mus musculus with 18 samples.

Results

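The genes described here are 7 markers of macrophage-like smooth muscle cells, Cd68, Lgals3, Ctss, Lyz2, Cd14, Csf1 and Csf1r, taken by symbol from the 21959 genes of the deposited expression table. All 7 were present and passed the expression filter, as 7 of the 13375 genes tested. Their levels were followed in 18 RNA sequencing libraries of MOVAS, an immortalised mouse aortic smooth muscle cell line, in 6 groups of 3. Blank cells had no treatment, Dox cells were given doxorubicin, an anthracycline that damages DNA, and H2O2 cells were given hydrogen peroxide, an oxidant. The groups B_I, H_I and D_I are labelled only with isoliensinine, a plant alkaloid, and were read from their parallel titles as its arms in Blank, H2O2 and Dox cells. Doxorubicin and H2O2 served to induce senescence, per the design text, and the series title concerns the clearance of senescent smooth muscle cells by natural killer cells. All groups came from a single cell line, and no label states a dose or a time.

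Smooth muscle cells of the vessel wall can lose contractile proteins and take up cholesterol, and cells in that state switch on genes better known from macrophages. CSF1, the macrophage colony-stimulating factor, is a secreted ligand that binds the receptor tyrosine kinase CSF1R, and the pair keeps macrophages alive and dividing. CD14 is a surface co-receptor that hands bacterial lipopolysaccharide to the Toll-like receptor TLR4. Galectin-3, the product of Lgals3, is a lectin that binds galactose-bearing sugars and is often used as a macrophage stain in plaques. CD68 is a heavily glycosylated protein of the lysosomal membrane, cathepsin S (Ctss) is a protease that digests elastin and the invariant chain of MHC class II, and lysozyme M (Lyz2) cleaves bacterial cell walls.

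Promoter sequence is shown for the pair of markers that rose with doxorubicin, Cd68 and Csf1. Each run is the 250 bases before the RefSeq start site, written from 5′ to 3′ on the gene's strand in build GRCm38.p6, which is not the build of the deposited coordinates. RefSeq windows were searched for 5 of the markers, and Cd14 and Csf1r were left out of the search. Capitals mark matches to a set of motifs searched on both strands: GAGGAA, the core bound by PU.1, TGANTCA for AP-1, CACGTG, the E-box, GGGA and TTCC with 2 bases of any kind between them for NF-kB, and TATAAA. The motifs can overlap in principle, and no match shown here did. The minus-strand windows lie at chr11:69666171-69666420 for Cd68 and at chr3:107760470-107760719 for Csf1.
Cd68 promoter: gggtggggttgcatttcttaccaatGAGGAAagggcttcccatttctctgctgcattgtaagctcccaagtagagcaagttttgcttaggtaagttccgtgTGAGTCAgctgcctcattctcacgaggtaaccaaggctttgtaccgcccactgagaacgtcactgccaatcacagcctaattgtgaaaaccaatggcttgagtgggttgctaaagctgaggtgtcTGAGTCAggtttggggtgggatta
Csf1 promoter: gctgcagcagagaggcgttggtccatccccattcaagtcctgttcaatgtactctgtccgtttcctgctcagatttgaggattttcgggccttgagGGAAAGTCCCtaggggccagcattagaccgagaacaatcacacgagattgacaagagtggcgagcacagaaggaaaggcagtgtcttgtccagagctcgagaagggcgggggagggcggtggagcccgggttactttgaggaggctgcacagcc
The Cd68 window held 1 PU.1 core, at -225 from the start site, and 2 AP-1 matches, at -149 and -24. The Csf1 window held 1 NF-kB match, at -154. Of 32851 promoter windows of the same length, 23.3% held a PU.1 core, 6.75% an AP-1 match, 6.02% an E-box, 1.21% an NF-kB match and 12.4% the TATA letters. The Ctss window had 1 PU.1 core and 1 TATA match, and the windows of Lgals3 and Lyz2 had none of these letters. A match describes the letters only and says nothing of a bound factor.

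Lyz2 is shown beside Lyz1, its near copy, because reads from one may be counted to the other. The first 150 coding bases of each are given from the GENCODE M21 transcripts, 5′ to 3′, with the 14 bases that differ between them in capitals.
Lyz2 coding start: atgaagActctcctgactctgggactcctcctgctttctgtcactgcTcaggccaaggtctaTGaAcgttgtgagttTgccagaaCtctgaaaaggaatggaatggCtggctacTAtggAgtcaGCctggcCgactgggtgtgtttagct
Lyz1 coding start: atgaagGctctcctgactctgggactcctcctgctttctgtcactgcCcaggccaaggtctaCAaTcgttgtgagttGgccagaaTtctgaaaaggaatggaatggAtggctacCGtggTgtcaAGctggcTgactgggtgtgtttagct
The coding sequences are 447 bases long and differ at 22 of them, an identity of 95.1%. Of 1267 stretches of 50 bases in the Lyz2 transcript, 15.4% also occur in Lyz1. The ratio of Lyz2 to Lyz1 counts ran from 2.98 in Dox replicate 3 to 47 in H2O2 replicate 2, where Lyz1 had 1 count. How reads were assigned between the copies was not tested, and Lyz2 values are uncertain to that extent.

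Some libraries stood apart from the rest. Total counts ran from 12859609 to 23284077 per library. Blank replicate 4 and B_I replicate 3 lay at the low end of the first principal component, with Acta2, which encodes smooth muscle actin, at 4514 and 3875 CPM. Acta2 ran from 806 CPM upwards over all libraries, whereas Tagln, a defining smooth muscle gene, never exceeded 0.809 CPM. Myh11, smooth muscle myosin, was at 31.7 CPM in H_I replicate 1 and ran from 1.30 to 12.2 CPM in the other libraries. Here CPM are counts relative to the library total, scaled by the trimmed mean of M-values (TMM). Transcripts of other tissues were present in every library, most of all in H_I replicate 1, where 15 colon epithelium markers summed to 828 CPM against 247 and 319 in its group. Liver markers summed to 440 CPM there against 164 and 163. H2O2 replicate 3 had 193 CPM of the colon markers against 62.6 and 49.3 in its group, so every H_I library lay above every H2O2 library in this sum.

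Levels can be set side by side between genes only per length, so the order of the markers is given in FPKM, fragments scaled by gene length and library total. Lgals3 was highest with a mean of 238 ± 50 FPKM (SD over 18 libraries), followed by Csf1 at 29.3 ± 11.7, Cd14 at 15.7 ± 2.74, Lyz2 at 11.8 ± 6.81 and Cd68 at 9.20 ± 6.05 FPKM. Ctss had 2.26 ± 2.07 FPKM and Csf1r, the receptor, 0.354 ± 0.171 FPKM. Cd14, Lyz2 and Cd68 were neighbours that did not differ beyond their spread over the libraries, and the ranges of Ctss and Csf1r overlapped. Between the lowest and the highest library, Lgals3 varied 1.98-fold, Cd14 2.03-fold and Csf1 3.17-fold in CPM. Lyz2 varied 11.3-fold, Csf1r 19.1-fold, Ctss 19.9-fold and Cd68 23.8-fold. Low counts limit Csf1r, with 3 to 88 counts per library, and Ctss, with 10 to 167.

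**Figure D1:**
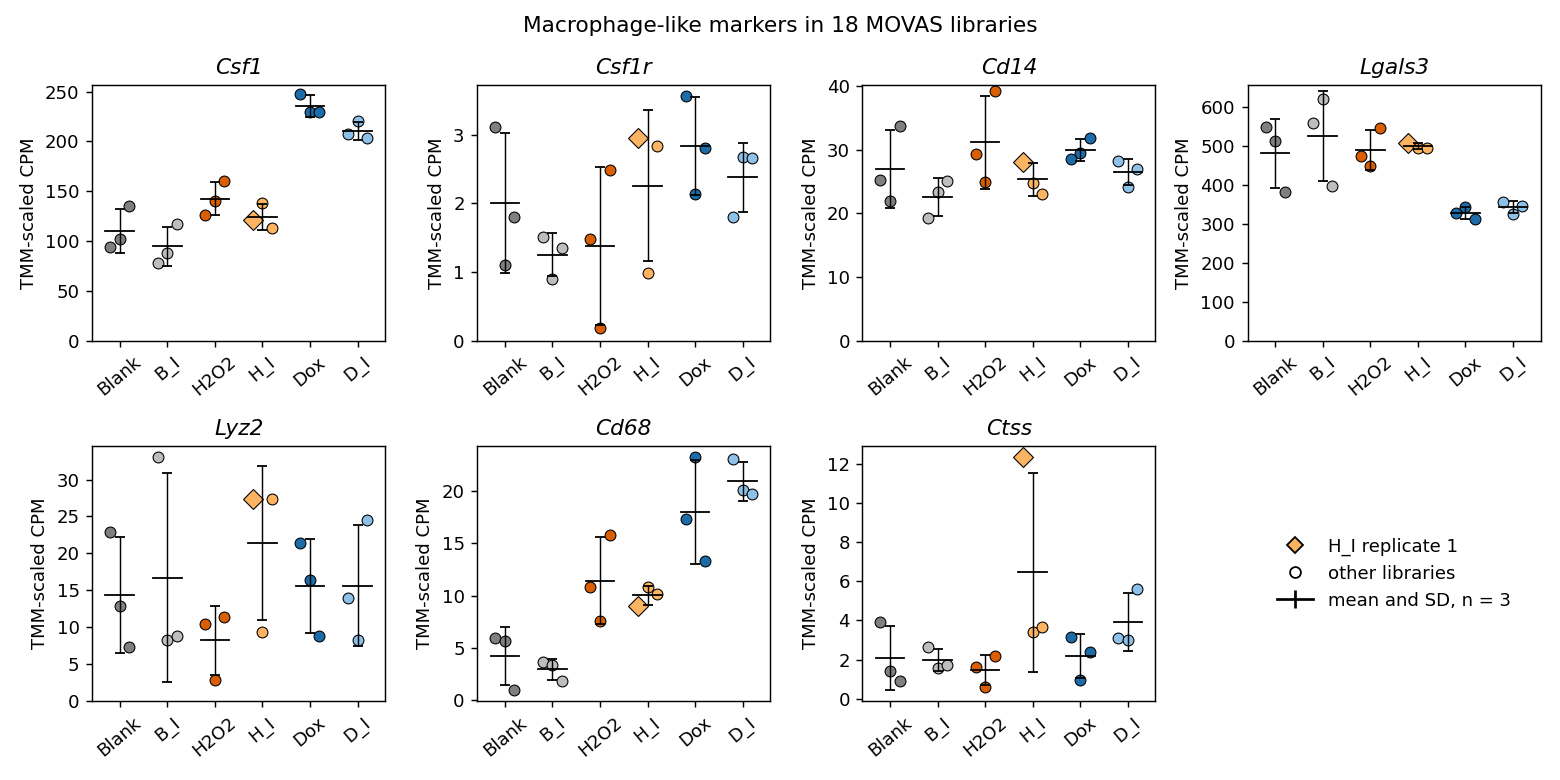
TMM-scaled CPM (linear axes from 0) of each marker in the 18 libraries, with the mean and SD of 3 libraries per group as lines and H_I replicate 1 as a diamond. Csf1 is between 204 and 248 CPM in the Dox and D_I libraries and at most 160 CPM elsewhere, and Lgals3 is at most 356 CPM in them and at least 380 CPM elsewhere.

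The effect of doxorubicin on these genes was read from Dox against Blank. Csf1 and Cd68 rose and Lgals3 fell, so 3 of the 7 markers were called at an adjusted p under 0.05 (edgeR's quasi-likelihood test, Benjamini-Hochberg adjusted over all tested genes). The share called over all tested genes was 21.7% in either direction, 10.3% higher and 11.4% lower. Without Dox replicate 3 the number of called genes went from 2896 to 1876. The median log2 fold change of the 7 markers was 0.15, beside 0.08 for all tested genes. Cd14, Csf1r, Lyz2 and Ctss were not called. In bulk RNA, more cells that make a transcript and more transcript per cell cannot be told apart.

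Csf1, the ligand (chromosome 3, 107648364 to 107667785, as deposited), was at 93.5, 102 and 135 CPM in the 3 Blank libraries and at 248, 230 and 229 CPM in the 3 Dox libraries. All Dox libraries lay above all Blank libraries. The mean went from 110 ± 22 to 236 ± 10.8 CPM (SD, n = 3), a 2.14-fold rise (95% interval 1.74 to 2.63; log2 1.10, SE 0.143; edgeR's quasi-likelihood adjusted p = 1.12e-05). Csf1r, its receptor, was at 3.11, 1.11 and 1.80 CPM in Blank and at 3.56, 2.14 and 2.81 CPM in Dox. These groups overlapped, and the log2 difference of 0.50 had an interval from -0.74 to 1.73 (edgeR's quasi-likelihood adjusted p = 0.623). Csf1r shares 873 bases with Hmgxb3 on the opposite strand in the deposited coordinates (chromosome 18, 61233670 to 61265221), and the strand setting of the counting is not stated. Hmgxb3 itself was higher in Dox (log2 0.40, edgeR's quasi-likelihood adjusted p = 0.0309), and reads within the shared bases cannot be told apart without strand.

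Cd68, the lysosomal membrane marker, was at 5.98, 5.67 and 0.977 CPM in Blank and at 17.4, 23.2 and 13.3 CPM in Dox. Blank replicate 4, which stood apart in Acta2, had the lowest Cd68 of all 18 libraries, at 13 counts. The groups did not overlap. The mean went from 4.21 ± 2.80 to 18 ± 4.99 CPM (SD, n = 3), a 4.21-fold rise (95% interval 2.35 to 7.55; log2 2.07, SE 0.404; edgeR's quasi-likelihood adjusted p = 0.000827). Without Blank replicate 4 the log2 difference was 1.6 and was still called (edgeR's quasi-likelihood adjusted p = 0.000511). Cd68 (chromosome 11, 69555039 to 69556979, minus strand) lies 782 bases from Eif4a1, a translation initiation factor gene on the same strand. Eif4a1 was also higher in Dox (log2 0.39, edgeR's quasi-likelihood adjusted p = 0.022), and its part in the Cd68 counts was not tested.

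Lgals3, which encodes galectin-3 (chromosome 14, 47605208 to 47623617), moved the other way. It was at 549, 511 and 380 CPM in Blank and at 327, 342 and 313 CPM in Dox. Every Dox library lay below every Blank library in TMM-scaled CPM. In FPKM the groups overlapped, with Blank replicate 4 at 172.9 FPKM and the Dox libraries at 186.8, 188.3 and 180.5 FPKM. The mean went from 480 ± 88.6 to 327 ± 14.6 CPM (SD, n = 3), a ratio of 0.681 (95% interval 0.558 to 0.832; log2 -0.55, SE 0.139; edgeR's quasi-likelihood adjusted p = 0.00608). On log2(FPKM + 1) with limma the difference was -0.36 and was not called (adjusted p = 0.114).

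The other 3 markers gave no call in Dox against Blank. Cd14, the lipopolysaccharide co-receptor (chromosome 18, 36858120 to 36859851), was at 25.2, 22 and 33.8 CPM in Blank and at 28.5, 29.5 and 31.9 CPM in Dox, within the spread of Blank. Its log2 difference of 0.15 had an interval from -0.21 to 0.51 (edgeR's quasi-likelihood adjusted p = 0.61). Lyz2 (chromosome 10, 117113236 to 117118226) was at 22.9, 12.9 and 7.29 CPM in Blank and at 21.4, 16.5 and 8.78 CPM in Dox, nearly the same range. Ctss (chromosome 3, 95434097 to 95463714) was at 3.92, 1.42 and 0.902 CPM in Blank and at 3.16, 0.970 and 2.40 CPM in Dox. The intervals of Lyz2, from -1.24 to 1.46 on the log2 scale, and of Ctss, from -1.18 to 1.30, leave room for changes of over 2-fold in either direction.

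D_I and B_I, both given isoliensinine, make this contrast in libraries that the Dox and Blank groups do not use, a comparison added after the data were seen. It is not fully independent, since all libraries were fitted jointly and share the estimate of the spread. Again 3 of the 7 markers were called, 2 higher and 1 lower, beside 18.8% of all tested genes, 9.41% in each direction. Cd68 was at 3.67, 3.36 and 1.80 CPM in B_I and at 23.1, 20.1 and 19.7 CPM in D_I. That is a 7.09-fold difference (95% interval 3.87 to 13.0; log2 2.83, SE 0.420; edgeR's quasi-likelihood adjusted p = 7.18e-05). Eif4a1, its neighbour on the same strand, had a log2 difference of -0.02 here (edgeR's quasi-likelihood adjusted p = 0.919).

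Csf1 was at 78.3, 88.4 and 117 CPM in B_I and at 208, 221 and 204 CPM in D_I. The rise was 2.23-fold (95% interval 1.82 to 2.74; edgeR's quasi-likelihood adjusted p = 8.35e-06). Lgals3 was at 559, 619 and 396 CPM in B_I and at 356, 325 and 346 CPM in D_I, a log2 difference of -0.62 (SE 0.139, edgeR's quasi-likelihood adjusted p = 0.00333). As in the arm without isoliensinine, the groups of each of these 3 genes did not overlap in TMM-scaled CPM. In FPKM those of Lgals3 did, with B_I replicate 3 at 184.9 FPKM and D_I at 200.5, 182.2 and 193.9 FPKM. The Lgals3 call was lost with limma on log2(FPKM + 1) (-0.42, adjusted p = 0.0698). The share of all tested genes whose groups lie apart is not given here, so a gap between groups is only a description in any comparison. Csf1r and Ctss also lay higher in all D_I than in all B_I libraries without being called (log2 0.92 and 0.98, edgeR's quasi-likelihood adjusted p = 0.337 and 0.278). Cd14 differed by 0.23 (edgeR's quasi-likelihood adjusted p = 0.414), and was called with limma on log2(FPKM + 1) (0.37, adjusted p = 0.033). Lyz2 had -0.10, with an interval from -1.46 to 1.25.

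**Figure D2:**
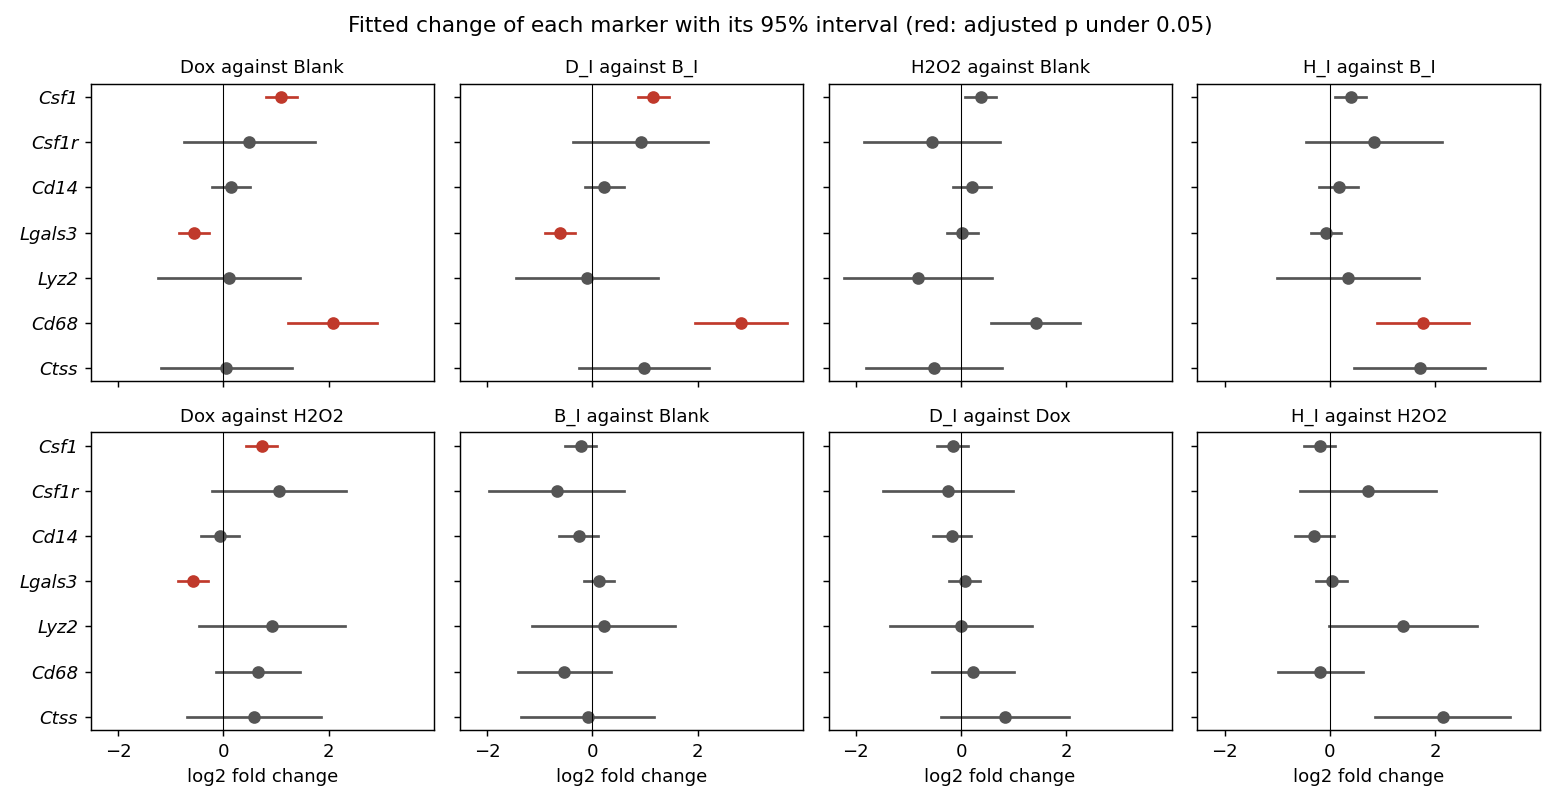
Fitted log2 fold change of each marker (point) with its 95% interval (line) in 8 comparisons of a pair of groups, with called markers in red. Csf1 and Lgals3 have short intervals, on opposite sides of 0 in Dox against Blank and in D_I against B_I, while the intervals of Csf1r, Lyz2 and Ctss span more than 2 log2 units in each panel.

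H2O2 against Blank asks what the oxidant changed. None of the 7 markers was called by edgeR's quasi-likelihood test, beside 1.43% of all tested genes, 0.636% higher and 0.793% lower. At an unadjusted p under 0.05, Cd68 (0.00226) and Csf1 (0.0163) passed. Cd68 was at 10.8, 7.56 and 15.8 CPM in H2O2, all above the highest Blank value of 5.98 CPM. The log2 difference was 1.41 (95% interval 0.57 to 2.26; edgeR's quasi-likelihood adjusted p = 0.0874). DESeq2 called it (log2 1.45, adjusted p = 0.0137), as did limma on log2(FPKM + 1) (1.40, adjusted p = 0.0315).

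Csf1 was at 127, 141 and 160 CPM in H2O2, of which the lowest lay under the highest Blank value. Its log2 difference was 0.37 (95% interval 0.08 to 0.67; edgeR's quasi-likelihood adjusted p = 0.22). Without Blank replicate 4 it was 0.55 and was called (edgeR's quasi-likelihood adjusted p = 0.027), and limma on log2(FPKM + 1) called it as well (0.48, adjusted p = 0.0163). Lgals3 was at 472, 448 and 546 CPM in H2O2, inside the Blank range, with a log2 difference of 0.03 (95% interval -0.26 to 0.31). Cd14 was at 29.4, 24.9 and 39.2 CPM, of which the highest was the top Cd14 value of all libraries.

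The 3 low markers followed the libraries within H2O2. Replicate 2 had the lowest Ctss (0.620 CPM), Lyz2 (2.91 CPM) and Csf1r (0.186 CPM, from 3 counts) of all 18 libraries. The same library had the lowest colon sum, at 49.3 CPM. Replicates 1 and 3 had Lyz2 at 10.5 and 11.3 CPM, Ctss at 1.62 and 2.17 CPM and Csf1r at 1.48 and 2.49 CPM.

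Dox and H2O2 were also compared directly. Csf1 was higher and Lgals3 lower in Dox, so 2 of the 7 markers were called, beside 13.1% of all tested genes, 6.73% higher and 6.33% lower. The Csf1 ratio was 1.65 (95% interval 1.35 to 2.03; edgeR's quasi-likelihood adjusted p = 0.00151). The Lgals3 ratio was 0.669 (95% interval 0.548 to 0.818; edgeR's quasi-likelihood adjusted p = 0.00784). For Cd68 the groups overlapped, since H2O2 replicate 3, at 15.8 CPM, lay above Dox replicate 3, at 13.3 CPM. Its log2 difference was 0.66 (95% interval -0.13 to 1.45; edgeR's quasi-likelihood adjusted p = 0.288), and it was called without Blank replicate 4 and B_I replicate 3 together (0.63, adjusted p = 0.0455).

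H_I against B_I, the oxidant contrast with isoliensinine in both arms, was likewise added after the data were seen. It had 1 called marker, beside 1.46% of all tested genes, 0.464% higher and 0.994% lower. Cd68 was at 9, 10.9 and 10.2 CPM in H_I, all above the 3 B_I libraries (log2 1.76, SE 0.417; edgeR's quasi-likelihood adjusted p = 0.0406). The call was lost without any of 10 libraries, namely B_I replicates 2 and 3, H2O2 replicate 1, all 3 H_I and all 3 D_I replicates, and Dox replicate 1. Over leaving out each of the 18 libraries the log2 value ran from 1.51 to 1.96, with adjusted p up to 0.179. Csf1 had a log2 difference of 0.39 (edgeR's quasi-likelihood adjusted p = 0.162), and was called without Blank replicate 4 (0.41, adjusted p = 0.0435).

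The effect of isoliensinine on the markers was read from B_I against Blank, D_I against Dox and H_I against H2O2. No marker was called in any of these 3 comparisons by edgeR's quasi-likelihood test, beside 0% of all tested genes in each. At an unadjusted p under 0.05, 640, 556 and 915 of the tested genes passed, among them 1 marker, Ctss in H_I against H2O2. DESeq2 called 1, 21 and 81 genes. A p over the threshold does not show that the levels were equal, so the intervals are given. In D_I against Dox, Csf1 had a log2 difference of -0.16 (95% interval -0.45 to 0.13) and Cd14 of -0.18 (-0.54 to 0.19), with all D_I libraries below all Dox libraries for each gene. Lgals3 had 0.07 (-0.22 to 0.35) and Cd68 0.22 (-0.56 to 1), with overlapping groups.

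In H_I against H2O2, Cd68 differed by -0.18 on the log2 scale (95% interval -0.99 to 0.63), Csf1 by -0.20 (-0.49 to 0.10), Lgals3 by 0.03 (-0.26 to 0.32) and Cd14 by -0.30 (-0.66 to 0.07). In B_I against Blank, Cd68 had -0.53 (-1.42 to 0.36), Csf1 -0.22 (-0.52 to 0.08), Cd14 -0.26 (-0.63 to 0.11) and Lgals3 0.13 (-0.16 to 0.42). The intervals of Csf1, Cd14 and Lgals3 in these comparisons lay within 1 log2 unit of 0. Differences between isoliensinine effects, tested as (D_I - Dox) - (B_I - Blank) and (H_I - H2O2) - (B_I - Blank), gave 0 called markers, beside 0% of all tested genes, with 522 and 813 genes at an unadjusted p under 0.05. Among the markers, Ctss passed that level in the H2O2 contrast (log2 2.22, unadjusted p = 0.0171, edgeR's quasi-likelihood adjusted p = 0.765), with 1.36 without H_I replicate 1. DESeq2 called 3 and 2 genes for these contrasts.

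H_I replicate 1 is shown apart, because it held the most transcripts of other tissues. Ctss was at 12.3 CPM there, the highest of 18 libraries, and at 3.39 and 3.64 CPM in the other H_I libraries, a ratio of 3.50. The 17 other libraries had Ctss between 0.620 and 5.62 CPM. Ceacam1, a colon epithelium gene, had a ratio of 3.49 between the same libraries, and Muc2, the intestinal mucin, of 3.06. Lyz2 in this library was at 27.4 CPM against 9.44 and 27.4 CPM, and Csf1r at 2.95 against 0.987 and 2.83 CPM, so that replicate 2 was the low library for these genes. Cd68 was not raised there, at 9 CPM against 10.9 and 10.2 CPM, nor were Lgals3 (508 against 495 and 495 CPM) and Csf1 (121 against 139 and 113 CPM). Cd14 was at 28.1 CPM against 24.9 and 23.1 CPM.

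Of 24 other macrophage and leukocyte markers, 12 had their highest CPM in this library, among them Ptprc, the pan-leukocyte CD45, at 3.91 CPM against 0.247 and 2.16 CPM in its group. Adgre1, the macrophage surface protein F4/80, reached 1.11 CPM against 0.0617 and 0.607 CPM. The other 12 peaked elsewhere, such as Itgam at 0.607 CPM in H_I replicate 3 against 0.590 CPM here, and Cd74 at 42.8 CPM in D_I replicate 2 against 24.9 CPM here. With the library, Ctss in H_I against H2O2 had a log2 difference of 2.14 (unadjusted p = 0.0023, edgeR's quasi-likelihood adjusted p = 0.35), with all H_I libraries above all H2O2 libraries. Without it the difference was 1.27 (adjusted p = 0.993). The Lyz2 difference went from 1.38 (95% interval -0.02 to 2.79) to 1.17 without the library, and that of Cd68 from -0.18 to -0.10. The other H_I libraries still had more of the colon markers, 247 and 319 CPM, than any H2O2 library, at most 193 CPM. The part of these transcripts in the remaining Ctss and Lyz2 differences was not tested.

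Over all libraries, the genes most like each marker were sought by Pearson's r of log2 CPM over 18 libraries, as a description, since libraries of a group share their treatment. Cd68 was most like Spp1 (r = 0.934), which encodes the secreted matrix protein osteopontin, then Arl4c (0.931) and Arih2 (0.928). Spp1 itself had a mean of 29.0 CPM in Blank, 71.0 in H2O2 and 142 in Dox. Among the genes most like Csf1 were Rangap1 (0.965) and Mcam (0.959), which encode a nuclear transport factor and an adhesion molecule. Lgals3 was most like Hexa (0.960), the lysosomal hexosaminidase subunit, Vat1 (0.960) and Uap1l1 (0.954). Hexa had a mean of 295 CPM in Blank and 155 CPM in Dox. Cd14 was most like Tamalin (0.851), Stx1a (0.816) and Mmadhc (0.811), and Csf1r like Txlng (0.810), Spint2 (0.807) and Plek2 (0.801).

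The genes most like Ctss were Ehf (r = 0.913), Ceacam1 (0.902) and Muc2 (0.899), all 3 of epithelium and the latter pair on the colon list. Against the summed colon markers Ctss had r = 0.886 over 18 libraries and 0.825 over the 17 without H_I replicate 1. The genes most like Lyz2 were Scgb1a1 (0.922), the club cell secretoglobin of airways, and the surfactant genes Sftpc (0.888) and Sftpb (0.869) of lung alveoli. These 3 lung genes summed to between 3.22 CPM, in H2O2 replicate 2, and 54.3 CPM, in B_I replicate 1. Those were also the libraries with the lowest and the highest Lyz2, at 2.91 and 33.1 CPM. Their part in the Ctss and Lyz2 values was not tested. With the colon sum, Lyz2 had r = 0.767, Csf1r 0.583, Cd68 0.340, Lgals3 0.174, Csf1 -0.027 and Cd14 -0.15. With the sum of 24 other macrophage and leukocyte markers, Csf1r had r = 0.801, Ctss 0.729, Cd68 0.670, Lyz2 0.664, Csf1 0.508, Cd14 0.238 and Lgals3 -0.362. Without H_I replicate 1 the values for Cd68 and Csf1 were 0.724 and 0.611. Cd74 alone made up 37.2 of the 49.6 CPM of this sum in Dox replicate 2. It was 42.8 of 55.6 CPM in D_I replicate 2 and 15.3 of 38.9 CPM in Blank replicate 1. The part of Cd74 in these correlations was not tested.

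**Figure D3:**
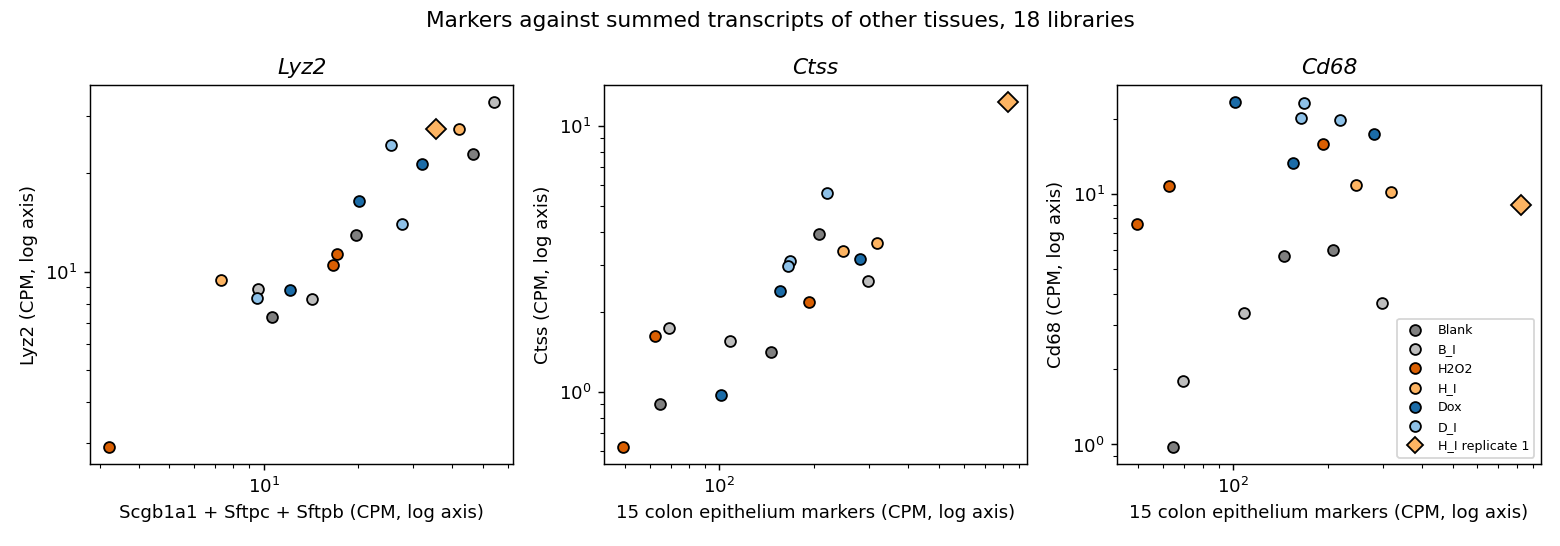
Lyz2 against the sum of 3 lung genes, and Ctss and Cd68 against the sum of 15 colon markers, in CPM on log axes for the 18 libraries, with H_I replicate 1 as a diamond. Lyz2 and Ctss are lowest where the tissue sums are lowest, whereas Cd68 is at 9 CPM in the library with the highest colon sum and at 23.2 CPM in Dox replicate 2, with a colon sum of 102 CPM.

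Among the markers themselves, Ctss, Lyz2 and Csf1r varied together over the 18 libraries, with r of 0.695 for Ctss with Lyz2, 0.699 for Lyz2 with Csf1r and 0.625 for Ctss with Csf1r. Csf1 and Lgals3 had r = -0.876, and Csf1 and Cd68 0.691. Csf1 and its receptor Csf1r had 0.335. The 7 markers did not vary as 1 group.

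The wider macrophage signature was read from 24 other macrophage and leukocyte markers, of which 17 passed the expression filter. In FPKM, 17 of the 24 stayed under 1 in every library, and 18 had a count of 0 in at least 1 library. Adgre1 and Itgam, defining macrophage surface genes, were at 0 counts in 6 libraries each, and neither passed the filter. All of these zeros lay in Blank, B_I and H2O2. Itgam had 1, 3 and 0 counts in Blank and 0 in each B_I library, against 11, 5 and 3 counts in Dox and 7, 2 and 5 in D_I. Adgre1 had 4, 4 and 0 counts in Blank and 4, 0 and 0 in B_I, against 10, 5 and 2 in Dox and 9, 3 and 6 in D_I. H_I had 8, 1 and 9 counts of Itgam and 15, 1 and 9 of Adgre1, so such counts were not particular to doxorubicin. These counts are not scaled, and library totals were 20140802 to 23284077 in Dox and 15740815 to 16553596 in Blank. The part of Itgam and Adgre1 in the Cd68 values was not tested. Spi1, which encodes PU.1, the master regulator of macrophage genes, was at 0 counts in 4 libraries and reached at most 0.467 FPKM. By comparison Cd68 ran from 0.657 to 19.3 FPKM.

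Of the 17 tested, 1 was called in Dox against Blank, Cd74, the invariant chain of MHC class II. Cd74 ran from 10.8 to 15.4 CPM in Blank and from 28.9 to 37.2 CPM in Dox (log2 1.22, SE 0.268; edgeR's quasi-likelihood adjusted p = 0.00229). It was also higher in D_I than in B_I (log2 2.01, edgeR's quasi-likelihood adjusted p = 2.84e-05). The sum of all 24 ran from 22.7 to 38.9 CPM in Blank and from 40.6 to 49.6 CPM in Dox. Without Cd74 the sum was 8.49 to 23.6 CPM in Blank and 10.4 to 18.5 CPM in Dox, which overlap. The median log2 difference of the 17 was 0.10 in Dox against Blank, beside 0.08 for all tested genes.

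Markers of other cell types that could move with Cd68, Csf1 and Lgals3 were read in the same comparison. None of 15 colon, 11 liver, 2 lymphocyte or 8 endothelial markers tested was called in Dox against Blank. Their median log2 differences were 0.43, -0.31, -0.12 and -0.45 in that order, beside 0.08 for all tested genes, so the lack of calls does not show equal levels. Of 3 tested neutrophil and blood markers, 2 were lower, the haemoglobin genes Hba-a1 and Hbb-bs, with group means between 5.20 and 15.6 CPM. Both calls were lost without Blank replicate 2 or 4 or Dox replicate 2 or 3 (adjusted p up to 0.145). In D_I against B_I, 1 of the 11 liver markers was higher, Trf, the transferrin gene (log2 1.10, edgeR's quasi-likelihood adjusted p = 0.0126), lost without B_I replicate 2 (0.0758) or D_I replicate 3 (0.0572). It was higher in H_I against B_I too (log2 1.24, adjusted p = 0.0431), lost in 12 of the 18 fits that left out a library, all but those without Blank replicate 4, B_I replicate 1, H_I replicate 3 or an H2O2 replicate (up to 0.229). The colon sum ran from 64.6 to 208 CPM in Blank and from 102 to 281 CPM in Dox, and its part in the marker values was not tested.

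**Figure D4:**
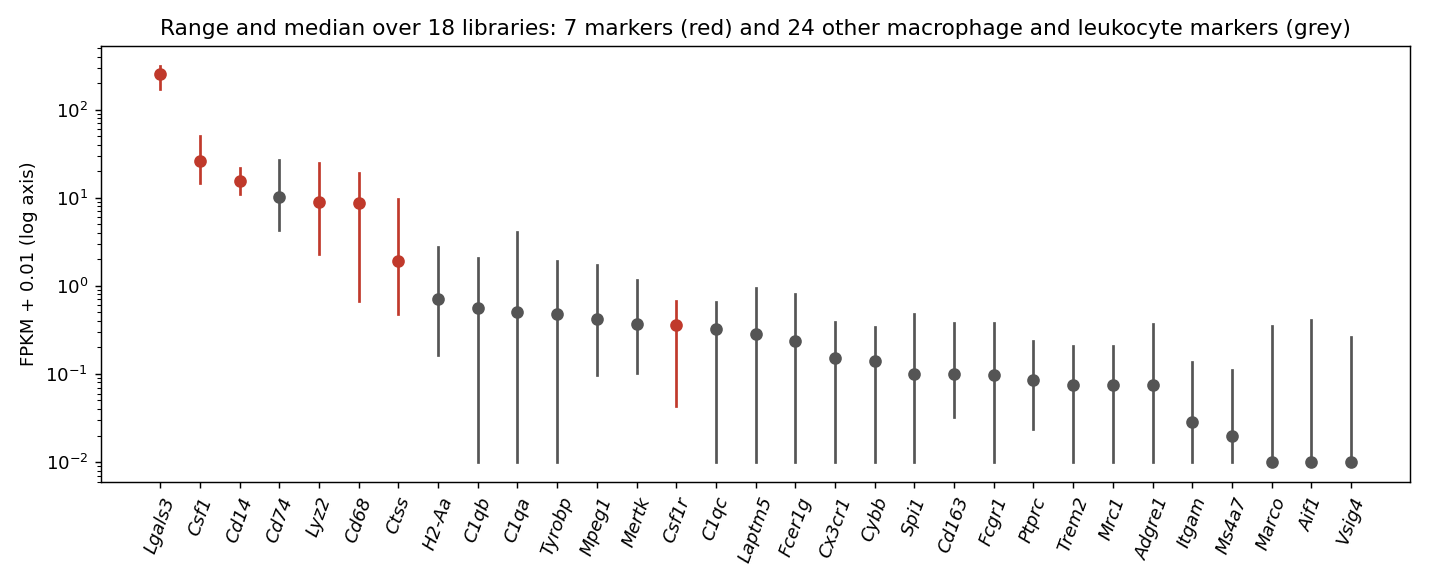
FPKM + 0.01 on a log axis for the 7 markers (red) and the 24 other macrophage and leukocyte markers (grey), each as its median (point) and range (line) over 18 libraries. Lgals3 and Csf1 lead, and most grey genes stay under 1 FPKM, while Cd74 reaches 26.5 FPKM.

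Genes that work with the markers were counted from lists of their pathways in Dox against Blank, where 10.3% of all tested genes were higher and 11.4% lower. Of 16 genes around CSF receptors (other ligands, receptors and signalling adaptors), 12 were tested, 2 were higher and 0 lower. Inpp5d, the SHIP1 lipid phosphatase of blood cells, went from 0.200 ± 0.188 to 2.93 ± 0.501 CPM (SD, n = 3), with an edgeR quasi-likelihood adjusted p of 0.00386. Its Blank mean lies near the level of 3 counts, 0.181 to 0.191 CPM in these libraries, so the size of the rise is uncertain. Cbl, a ubiquitin ligase that tags activated receptor tyrosine kinases, went from 18.3 ± 2.27 to 31.4 ± 4.61 CPM (adjusted p = 0.0014). In D_I against B_I, Inpp5d had an edgeR quasi-likelihood adjusted p of 0.0379, lost without B_I replicate 2 or 3 or any of the 3 Dox or 3 D_I replicates (up to 0.122). Cbl had 0.0128 there, lost without B_I replicate 2 (0.0636). Of 15 genes of the CD14 and Toll-like receptor route, 13 were tested, and 1 was higher and 0 lower. That gene, Irak2, a kinase of Toll-like receptor signalling, had a log2 difference of 0.60 (edgeR's quasi-likelihood adjusted p = 0.015), and its call was lost without Blank replicate 1 or Dox replicate 2 (adjusted p of 0.0509 to 0.0858).

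Of 18 other cathepsins, cystatins and related proteases, 14 were tested, 9 were lower and 1 was higher in Dox against Blank, with a median log2 difference of -0.39. Ctsa, cathepsin A, went from 715 ± 134 to 379 ± 29.3 CPM (SD, n = 3), a log2 difference of -0.92 with an edgeR quasi-likelihood adjusted p of 6.79e-05. Cst3, the cathepsin inhibitor cystatin C, went from 1263 ± 214 to 777 ± 79.8 CPM (log2 -0.70, adjusted p = 0.00167). Ctsf, cathepsin F, was the higher one, from 0.502 ± 0.164 to 1.96 ± 0.640 CPM, and its call was lost without Blank replicate 2 or 4 or Dox replicate 1 or 3 (adjusted p of 0.0711 to 0.11). In D_I against B_I, 3 of the 14 were lower and 1 higher, with a median of -0.19, and in Dox against H2O2 7 were lower and 0 higher. In H_I against B_I, where Cd68 was also called higher, 0 were lower and 1 was higher, with a median of 0.06. Ctsf was the higher gene in both isoliensinine comparisons, from 0.124 ± 0.129 CPM in B_I to 2.58 ± 0.722 in D_I and 2 ± 0.463 in H_I (SD, n = 3), where B_I lies under the level of 3 counts. Its edgeR quasi-likelihood adjusted p was 0.00026 for D_I, called in 27 of 27 other settings, and 0.00812 for H_I, called in 26 of 27 and lost with only the groups compared (0.084).

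Of 6 lysosomal membrane glycoproteins, the class to which CD68 belongs, 5 were tested, 3 were lower and 0 higher in Dox against Blank. Lamp1, the main LAMP protein, had a log2 difference of -0.67 (edgeR's quasi-likelihood adjusted p = 0.0319), Scarb2 of -0.42 (0.0275) and Cd63 of -0.41 (0.0174). The Lamp1 and Scarb2 calls were lost without Blank replicate 1 or 2 or any of the 3 Dox replicates, with adjusted p up to 0.152 and 0.109. The Cd63 call was lost without Blank replicate 1 or Dox replicate 1 or 3 (up to 0.0966). Beside these, Cd68 had its 4.21-fold rise in the same libraries.

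Of 8 other galectins and their partners, 6 were tested, 1 was higher and 1 lower. Lgals2, galectin-2, went from 37.5 ± 14.8 to 9.39 ± 1.29 CPM (SD, n = 3), a log2 difference of -2.00 with an edgeR quasi-likelihood adjusted p of 0.000305. Lgals3bp, a secreted glycoprotein that binds galectin-3, rose from 45.6 ± 4.69 to 94.4 ± 7.14 CPM (log2 1.05, adjusted p = 9.08e-07), while Lgals3 fell. In D_I against B_I the values were -1.73 for Lgals2 and 1.28 for Lgals3bp (edgeR's quasi-likelihood adjusted p = 0.00133 and 1.36e-07).

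Foam cells carry stored cholesterol, and 20 genes of lipid uptake and efflux were counted beside the markers. Of these, 18 were tested, 2 were higher and 3 lower in Dox against Blank. Abca1, the cholesterol exporter, rose from 34.5 ± 9.51 to 69.9 ± 12.4 CPM (SD, n = 3), with an edgeR quasi-likelihood adjusted p of 0.00296. Npc2, which carries cholesterol out of lysosomes, fell from 810 ± 209 to 435 ± 25.5 CPM (adjusted p = 0.000389). Vldlr, a lipoprotein receptor, had a log2 difference of -0.82 (edgeR's quasi-likelihood adjusted p = 0.0265), lost without Blank replicate 2 or any of the 3 Dox replicates (up to 0.197).

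Of 20 genes of modulated smooth muscle cells, 17 were tested, 6 were higher and 2 lower in Dox against Blank, with a median of 0.56 beside 0.08 for all tested genes. Spp1 rose 4.87-fold (log2 2.28, SE 0.206; edgeR's quasi-likelihood adjusted p = 1.49e-07). Ly6a, which encodes the stem cell antigen Sca-1, rose from 3.18 ± 0.113 to 9.72 ± 0.732 CPM (SD, n = 3; adjusted p = 0.00404). Ly6c1 had a log2 difference of 1.6 (edgeR's quasi-likelihood adjusted p = 0.0355), lost without Blank replicate 2 or 4 or any of the 3 Dox replicates (up to 0.126). In H2O2 against Blank, Spp1 was the 1 higher gene of this list (log2 1.28, edgeR's quasi-likelihood adjusted p = 0.00161). Bgn, the matrix proteoglycan biglycan, was the 1 lower (log2 -0.56, adjusted p = 0.049), a call lost in 14 of the 18 fits that left out a library, all but those without Blank replicate 2, B_I replicate 1 or 3 or H2O2 replicate 3 (up to 0.151).

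Of 15 contractile smooth muscle genes, 13 were tested, 3 were higher and 0 lower in Dox against Blank. Mylk, the myosin light chain kinase, went from 7.63 ± 0.716 to 15.2 ± 2.46 CPM (SD, n = 3), with an edgeR quasi-likelihood adjusted p of 0.00315 and Cald1, caldesmon, from 52.9 ± 13.2 to 104 ± 23.6 CPM (adjusted p = 0.00411). Cnn1, calponin, had a log2 difference of 1.42 (edgeR's quasi-likelihood adjusted p = 0.0319), lost without Blank replicate 1 or 2 or Dox replicate 1 or 3 (up to 0.136). Acta2 differed by -0.18 (adjusted p = 0.878), with Blank at 806 to 4514 CPM. In D_I against B_I, 1 of the 13 was higher, Mylk (log2 0.67, edgeR's quasi-likelihood adjusted p = 0.0421), a call lost without any of the 3 B_I or 3 D_I replicates or Dox replicate 1 or 3 (up to 0.166). The integrin gene Itga8 was the 1 lower (-2.05, adjusted p = 0.0319), lost without B_I replicate 1 or any of the 3 D_I replicates (up to 0.177).

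**Figure D5:**
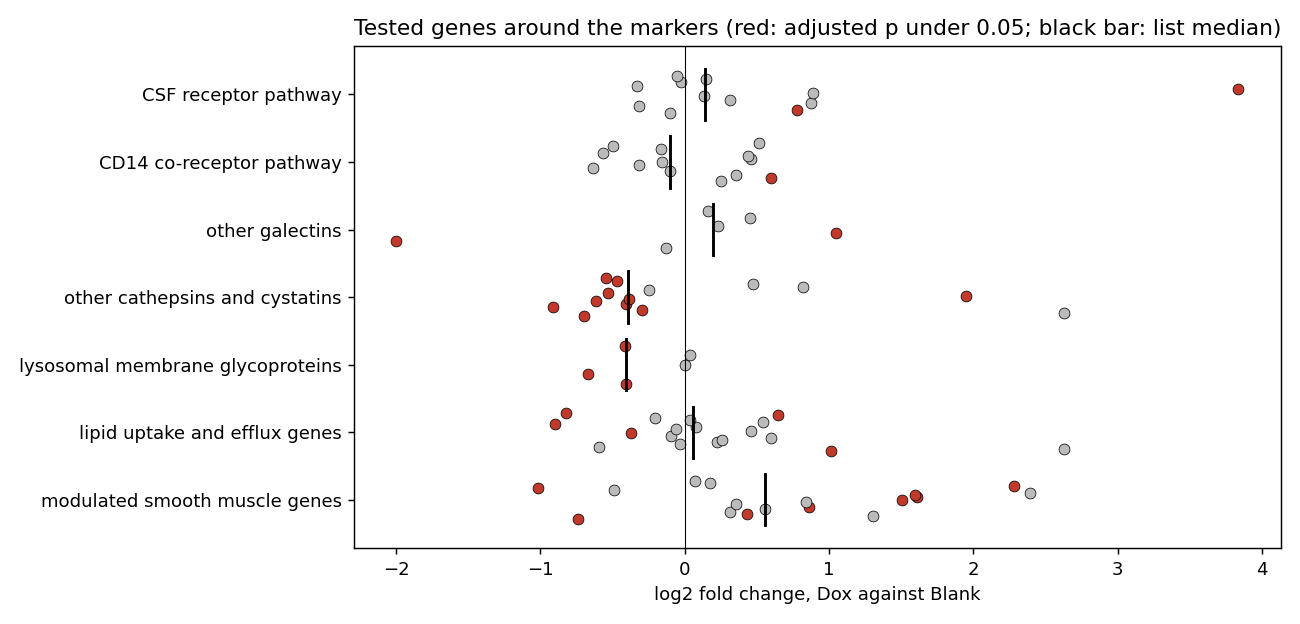
Log2 fold change in Dox against Blank of each tested gene in 7 lists around the markers, as points (red where the adjusted p is under 0.05), with the list median as a black bar. The bar lies at -0.39 for other cathepsins and cystatins and at 0.56 for modulated smooth muscle genes, and the CSF receptor gene farthest right is Inpp5d.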

How the data were processed

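RNA was measured in 18 libraries of MOVAS cells. Per the labels' protocols, poly-A RNA was captured with poly-T beads, fragmented, reverse-transcribed with random primers, selected by size and PCR-amplified. The submitters' processing notes name fastp 0.22.0, HISAT2 2.1.0 and HTSeq 0.9.1. Genome build: not given in the sources used here. Strand setting: likewise. Coordinates stand as deposited.

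Per the file headers, the deposited table holds raw read counts, as whole numbers without normalization. It also gives FPKM values made by the authors, and 100% of these equalled the count times 1000000000 over gene length times library total (relative tolerance 1e-06). Genes without a symbol (51, with 0.0187% of counts) were kept under their identifier. Totals ran from 12859609 to 23284077 counts. The precision for low genes is set by these counts, and PCR reads are not independent molecules.

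The main test was run in edgeR 4.0.16 (R 4.3.3): expression filter on groups (13375 genes), TMM scaling, and the quasi-likelihood test with robust dispersions with 1 mean for each group, fitted on 18 libraries jointly. Calls are Benjamini-Hochberg adjusted p-values under 0.05 over all tested genes. SE is the absolute log2 fold change over the square root of the F statistic, and 95% intervals use it with each gene's total degrees of freedom. The common biological coefficient of variation was 0.219. Levels are TMM-scaled CPM, as mean ± SD over n = 3 libraries. The design text speaks of biological replicates, and p-values measure the spread between these libraries. The chi-square per degree of freedom between replicates was 5.51 at the lowest, so no library was counted as a repeat.

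Beyond the 7 markers, the text names of each list up to 3 called genes with the largest change per comparison, the 3 genes with the highest Pearson correlation of log2 CPM (prior count 2) to each marker, and check genes of other tissues and of smooth muscle. For Csf1, 1 gene that this rule names is not reported here. Members and lists were chosen with earlier results of these data known. Hmgxb3 and Eif4a1, named for their position, and Spi1 were chosen after their values were seen.

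Alternatives were DESeq2 1.42.0, limma 3.58.1 on log2(FPKM + pseudocount), with pseudocounts of 1 and 0.1 and a minimum of 1 FPKM in 3 libraries, upper-quartile scaling, scaling by DESeq2's size factors, a filter of 5 CPM in 3 libraries or none, only the groups compared, a replicate block, an adjusted p under 0.01, and leaving out libraries. D_I and H_I against B_I were added after the data were seen. The pipeline was tested on simulated data.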

Additional observations from a re-analysis of the deposited data

How the results depend on the processing

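Of 2055 values of the markers over all settings and comparisons, 1939 kept their direction and their side of the threshold, 83 changed direction, 16 became called and 17 lost a call. Of the 9 called marker values, 253 of 270 results under another setting were still called. Cd68 in Dox against Blank ran from 1.6 to 2.41 on the log2 scale over leaving out each library, Csf1 from 1 to 1.24 and Lgals3 from -0.72 to -0.44, each called in 18 of 18. Most of these fits left out a library of another group, which keeps all Dox and Blank libraries and moves only the shared spread, scaling and filter. The number of called markers in H2O2 against Blank went from 0 to 1 with DESeq2, to 2 with limma on either pseudocount and to 2 without Blank replicate 4 and B_I replicate 3 together, and ran from 0 to 1 over leaving out each library. In H_I against B_I it went from 1 to 2 with limma on either pseudocount and without those 2 libraries together, to 0 with no filter, at an adjusted p under 0.01 and without H_I replicate 1 and H2O2 replicate 3 together, and ran from 0 to 2 over leaving out each library. The cause was not tested.

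Same-numbered libraries had correlated deviations of -0.188 to 0.279, and differently numbered libraries of -0.327 to 0.334. The value of 0.334 was for Blank replicate 4 with B_I replicate 3, and Blank has no replicate 3. Pairs of replicate 1 ran from -0.112, for H2O2 with H_I, to 0.279, for Blank with B_I. These ranges do not settle whether the replicate numbers pair the libraries, and the main test did not pair them. Number 4 occurs only in Blank, so a replicate block also fits Blank replicate 4 by itself, outside the Blank mean. Results with the block thus mix blocking with the loss of that library. With a replicate block 3 markers were called in Dox against Blank, 2 in Dox against H2O2, 3 in D_I against B_I, 0 in H2O2 against Blank and 2 in H_I against B_I, where Ctss was added (1.58, adjusted p = 0.0422). The block changed the sign of Ctss (-0.35) and Lyz2 (-0.18) in Dox against Blank, of Lgals3 (-0.089) in H2O2 against Blank, of Lyz2 in B_I against Blank (-0.30), D_I against Dox (-0.11) and D_I against B_I (0.0089), of Lgals3 (0.062), Lyz2 (0.19), Cd14 (-0.061) and Csf1 (-0.079) in the Dox difference of isoliensinine effects, and of Lgals3 (0.023) and Csf1 (-0.11) in the H2O2 difference.

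None of the values that changed sign was called. Without Blank replicate 4 and B_I replicate 3 together these were Ctss (-0.32) and Lyz2 (-0.23) in Dox against Blank, Lgals3 (-0.11) in H2O2 against Blank, Lyz2 (-9e-04) in D_I against Dox and Cd14 (-0.040) in the Dox difference. Without H_I replicate 1 and H2O2 replicate 3 together they were Lgals3 (-0.030) in H2O2 against Blank, Cd68 (0.18) in H_I against H2O2, Cd14 (0.085) in Dox against H2O2 and Cd14 (0.056) in the H2O2 difference. With limma at pseudocounts of 1 and 0.1 they were Ctss (0.025 and 0.13) in B_I against Blank, Lyz2 (-0.043 and -0.050) in D_I against Dox, Cd14 (0.026 and 0.028) in Dox against H2O2, Cd14 (0.0086 and 0.012) in the H2O2 difference, Lyz2 (0.21 and 0.24) in D_I against B_I and Lgals3 (0.12 and 0.12) in H_I against B_I. Lyz2 in D_I against Dox also changed sign with upper-quartile scaling (-2e-04), no filter (-0.0011) and only the groups compared (-0.011).

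Leaving out each library, the Dox difference ran from -0.11 to 0.21 for Cd14, -0.11 to 0.23 for Csf1, -0.047 to 0.72 for Csf1r, -0.24 to 0.077 for Lgals3 and -0.72 to 0.76 for Lyz2. The H2O2 difference ran from -0.22 to 0.16 for Cd14, -0.14 to 0.19 for Csf1 and -0.28 to 0.053 for Lgals3. B_I against Blank ran from -0.44 to 0.75 for Ctss, -0.013 to 0.31 for Lgals3 and -0.75 to 0.72 for Lyz2, and Lyz2 from -0.59 to 0.87 in D_I against B_I and -0.48 to 0.31 in D_I against Dox. Dox against Blank ran from -0.32 to 0.90 for Ctss and -0.23 to 0.62 for Lyz2, Dox against H2O2 from -0.19 to 0.15 for Cd14, H2O2 against Blank from -0.91 to 0.32 for Ctss and -0.11 to 0.13 for Lgals3, H_I against B_I from -0.24 to 0.087 for Lgals3, and H_I against H2O2 from -0.41 to 0.13 for Cd68 and -0.027 to 0.12 for Lgals3.

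Counts of all called genes also moved. Dox against Blank had 2896, 1722 at an adjusted p under 0.01, and 1876 (without Dox replicate 3) to 3213 leaving out each library. H2O2 against Blank had 191 (85 higher, 106 lower), 428 with DESeq2, 504 with limma (396 higher, 108 lower), 5 with only the groups compared and 94 (without Blank replicate 1) to 259 leaving out each library. H_I against B_I had 195 (62 higher, 133 lower), 364 with limma (270 higher, 94 lower), 530 with DESeq2, 616 with the block and 37 (without H_I replicate 1) to 550 (without Blank replicate 4) leaving out each library. Dox against H2O2 had 1746 and 845 (without Dox replicate 3) to 2302, and D_I against B_I 2518 and 1615 (without D_I replicate 1) to 3122. D_I against Dox had 0 and 263 with only the groups compared. Csf1r was below the filter with limma and at 5 CPM, and Ctss at 5 CPM. Depth limits Csf1r and Ctss most.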
